A study of Bos taurus with 12 samples.

Results

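Macrophage marker genes were described in the mammary gland (MG) of 12 multiparous Holstein cows in early lactation, 6 in the CONT group and 6 in the REST group. The set named 9 symbols, namely CSF1, CSF1R, CD68, CD163, MSR1, MRC1, ITGAX, AIF1 and CD86. Probes were assigned to them through the RefSeq accession that the array files give for each probe, and 7 of the 9 genes were matched, by 13 of 43653 probes. MRC1, the mannose receptor, and ITGAX, the alpha chain of the CD11c integrin, were not matched to a probe and were not analysed here. CD163 and AIF1 had 1 probe each and the other 5 genes had 2 or more, and the probe with the highest mean over the 12 arrays stands for its gene below.

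At 24 ± 3 days in milk, CONT cows continued to eat a lactation diet ad libitum, whereas REST cows were given for 4 d a ration in which barley straw made up 48% of dry matter. All 12 cows received 50 µg of lipopolysaccharide (LPS), the endotoxin of Gram-negative bacteria, into a healthy rear gland of the udder on d 3, so that both groups were challenged and no unchallenged gland was compared. Biopsies were taken 24 h later, and 100 ng of total RNA from each cow was labeled with Cy3 and hybridized to its own Agilent bovine array. The comparison asked whether the restriction changed the abundance of these transcripts in the challenged gland.

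Macrophages reside in the mammary stroma and epithelium and in milk, where they take up bacteria, milk lipid and dying cells and release the cytokines that call in neutrophils. Their survival and maturation depend on the receptor encoded by CSF1R, which binds the cytokines CSF1 and IL34. They are recognised by lysosomal glycoproteins such as CD68, by scavenger receptors such as CD163 and MSR1, by the actin-binding protein AIF1 (also called IBA1), and by CD86, the ligand that costimulates T cells.

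A level below is a log2 intensity from which the 75th percentile of that array was subtracted, so that 0 is the brightness of the 75th percentile probe and 1 unit is a doubling. The 75th percentile itself was 577 to 1184 intensity units in CONT and 387 to 1082 in REST, and 57.6 to 76.0% of probes in CONT and 63.2 to 78.1% in REST were called well above background by Feature Extraction. The arrays lay on 3 slides, slide 1 with 3 CONT and 1 REST cows, slide 2 with 1 CONT and 3 REST, and slide 3 with 2 of each. The biopsies held the labeled tissue, since all 12 measured milk epithelium genes of the marker list and all 13 measured pan-leukocyte genes were well above background on the 12 arrays. No member probe was saturated, and 8 of the 13 member probes were well above background on every array.

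No difference between REST and CONT passed the threshold for any of the 7 macrophage marker genes. In limma, 0 member genes had an unadjusted p under 0.05, against 2.61% of all probes (1138 of 43653, 1.73% higher and 0.877% lower in REST), and after Benjamini-Hochberg adjustment 0 of 43653 probes (0%) passed, the lowest adjusted p being 0.755. Westfall-Young adjustment, which the study's methods name, passed 0 probes too, with a lowest adjusted p of 0.22. The paper, with its own software and this adjustment, did report differentially expressed genes at an adjusted p under 0.05. None of those it lists by symbol is a member gene. Why the present fit differed from the paper's result was not tested. Of the 7 genes, 4 were higher and 3 lower in REST, where 45.9% of all probes had a positive log2 fold change (FC). Their median log2 FC was 0.013, against -0.024 for all probes. No gene had groups that did not overlap, which 0.119% of all probes had (52 probes). All member probes had a Benjamini-Hochberg adjusted p of 0.9997 in this fit and a Westfall-Young adjusted p of 1. The RNA is from bulk tissue, so that fewer macrophages and less of a transcript per macrophage cannot be told apart in any of these values.

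**Figure D1:**
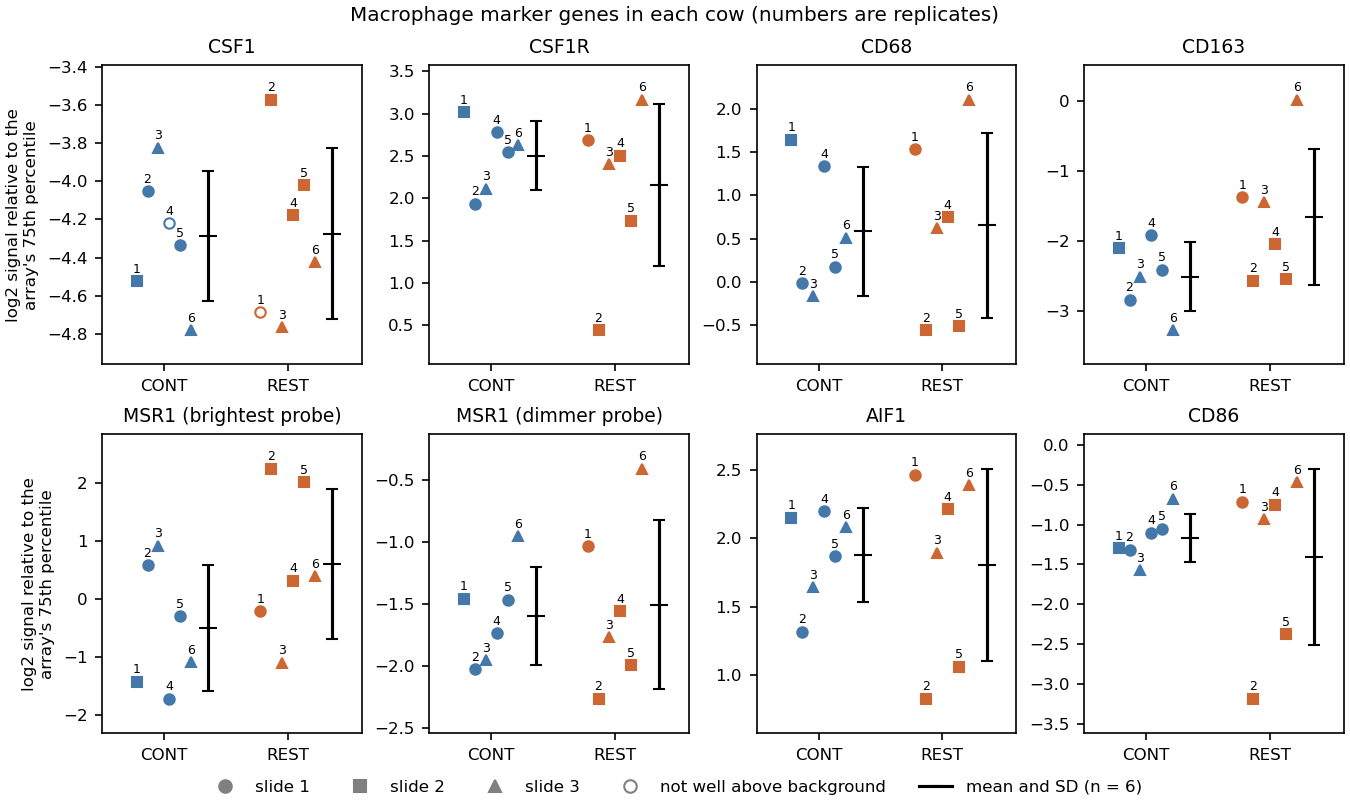
Level (log2 signal relative to the array's 75th percentile, vertical axis) of 7 macrophage marker genes in 6 CONT and 6 REST cows, with both MSR1 probes in panels of their own. Points are cows numbered by replicate, their shape is the slide, white points were not well above background, and black lines are the mean and SD. The groups overlap in every panel, and REST cows 2 and 5 hold the lowest points for CSF1R, CD68, AIF1 and CD86.

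The ligand CSF1 was near the limit of detection. Its level was -4.78 to -3.82 in CONT (median -4.28) and -4.76 to -3.57 in REST (median -4.30), and 5 of 6 arrays in each group were well above background. The 2 ranges were almost the same, with REST cow 2 the highest of all cows. The log2 FC (REST minus CONT) was 0.013 ± 0.23 (SE), with a 95% confidence interval of -0.49 to 0.51 and an exact permutation p of 0.952 (two-sided, n = 6 and 6). A further CSF1 probe was called well above background in 0 of 12 cows and is given no FC.

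The receptor CSF1R was read at 1.93 to 3.02 in CONT (median 2.59) and at 0.45 to 3.16 in REST (median 2.45). Both the highest and the lowest of the 12 cows were in REST, cows 6 and 2, and REST cows 2 and 5 were below every CONT cow. The mean level was 2.50 ± 0.41 (SD) in CONT and 2.16 ± 0.96 in REST, a log2 FC of -0.35 ± 0.39 (SE, 95% confidence interval -1.20 to 0.51, exact permutation p = 0.496), and -0.0051 without REST cow 2. The other CSF1R probe was above background in only 3 cows of each group, REST cows 2 and 5 not among them, so its FC is not given. Its intensity, dim as it was, rose and fell with that of the first probe (r = 0.91, permutation p = 9e-05, rho = 0.79, permutation p = 0.00365, r = 0.72 without the 2 cows farthest from the median level of the first probe). Adjusted over the 7 probe pairs of the set, these p-values were 0.000315 for r and 0.0128 for rho.

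Of the rest of the receptor's axis (its second ligand, the related granulocyte cytokines and their receptors, and myeloid transcription factors), 13 of 16 genes were measured. Their log2 FC was positive for 7 and negative for 6, with a median of 0.0076 (-0.035 without CONT cow 6 to 0.10 without REST cow 2) against -0.035 for all 12639 named genes, and 0 of 13 had an unadjusted p under 0.05. IL34, the other ligand of CSF1R, had the largest difference, a level of 1.99 ± 1.22 (SD) in CONT and 0.90 ± 1.24 in REST (log2 FC -1.09 ± 0.64, exact permutation p = 0.154). CSF2RB, the shared beta chain of the GM-CSF receptor, was at -3.63 ± 0.65 in CONT and -3.03 ± 0.84 in REST (log2 FC 0.59 ± 0.40, exact permutation p = 0.188). CSF2, which encodes GM-CSF itself, was called well above background in 0 of 12 cows.

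CD68, a glycoprotein of the lysosomes of phagocytes, had levels of -0.16 to 1.64 in CONT (median 0.34) and -0.55 to 2.10 in REST (median 0.68). As for CSF1R, REST cow 6 was the highest and REST cows 2 and 5 the lowest of all. The log2 FC was 0.073 ± 0.49 (SE), its 95% confidence interval was -0.98 to 1.13, and the exact permutation p was 0.887. The other CD68 probe gave a log2 FC of -0.18 ± 0.73, of opposite sign and as small against its error, although the 2 probes followed each other over the cows (r = 0.91, permutation p = 2e-05, adjusted 0.00014, rho = 0.98, permutation p = 1e-05, the smallest that 100000 permutations can give, adjusted 7e-05, r = 0.97 without the 2 farthest cows).

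CD163 is the scavenger receptor that clears complexes of haemoglobin and haptoglobin, and is used as a marker of alternatively activated macrophages. Its level was -3.27 to -1.92 in CONT (median -2.46) and -2.57 to 0.01 in REST (median -1.75). REST cows 1, 3 and 6 were above every CONT cow and the other 3 lay inside the CONT range, with REST cow 6 at 0.01 and the next REST cow at -1.38. The mean was -2.51 ± 0.49 (SD) in CONT and -1.67 ± 0.97 in REST, 1.80-fold higher in REST, with a log2 FC of 0.85 ± 0.41 (SE, 95% confidence interval -0.043 to 1.74). Without REST cow 6 it was 0.51. This was the smallest p of the set, at 0.0604 unadjusted in limma and 0.0758 in the exact permutation test, and it did not pass. The REST minus CONT difference within slides was 1.01 on slide 1, -0.29 on slide 2 and 2.18 on slide 3, and with slide as a block the log2 FC was 1.09 ± 0.43 (limma, Benjamini-Hochberg adjusted p = 0.9997). Its unadjusted p was then under 0.05, as it was for 2.8% of all probes in that fit.

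MSR1, the class A scavenger receptor that takes up modified lipoproteins and bacterial products, was read by a probe for the transcript NM_001113240 and by a probe for NM_174113. The first gave levels of -1.71 to 0.92 in CONT (median -0.69) and -1.09 to 2.25 in REST (median 0.36). REST cows 2 and 5, which had the lowest levels of CSF1R and CD68, were the 2 highest for this probe. The log2 FC was the largest of the set, 1.11 ± 0.62 (SE) or 2.16-fold, but its 95% confidence interval was -0.24 to 2.47 and the exact permutation p was 0.141. Between slides it ranged from 2.95 on slide 2 to 0.27 on slide 1 and -0.27 on slide 3.

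The NM_174113 probe gave MSR1 levels of -2.03 to -0.96 in CONT (median -1.60) and -2.27 to -0.41 in REST (median -1.66). Here REST cow 6 was the highest and REST cow 2 the lowest, the order seen for CSF1R and CD68. Its log2 FC was 0.094 ± 0.31 (SE, 95% confidence interval -0.57 to 0.76, exact permutation p = 0.786). The 2 MSR1 probes showed no positive relation over the 12 cows (r = -0.41, permutation p = 0.189, rho = -0.53, permutation p = 0.0797, r = -0.034 without the 2 farthest cows, adjusted p = 0.221 and 0.112), unlike the probe pairs of CSF1R and CD68. The 2 probes put the cows in different orders.

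Among the other scavenger receptors, 14 of 20 genes were measured, with 7 positive and 7 negative log2 FC and a median of -0.011 (-0.091 without CONT cow 1 to 0.051 without REST cow 2). An unadjusted limma p under 0.05 was found for 2 of them, with lower means in REST, where 2.64% of all named genes had one in either direction and 0.877% of all probes had one with a lower mean in REST. MRC2, an endocytic collagen receptor related to MRC1, had a level of 1.58 ± 0.46 (SD) in CONT and 0.96 ± 0.47 in REST (log2 FC -0.61 ± 0.26, exact permutation p = 0.0411). CXCL16, a chemokine that in its membrane form binds oxidised lipoprotein, was at 3.26 ± 0.55 in CONT and 2.51 ± 0.68 in REST (log2 FC -0.75 ± 0.34, exact permutation p = 0.0411). CD36, a fatty acid and lipoprotein receptor that adipocytes and milk epithelium also express, was at 4.38 ± 1.29 in 5 CONT cows, its spot on the array of CONT cow 4 being an outlier, and 5.10 ± 1.05 in REST (log2 FC 0.72 ± 0.63, exact permutation p = 0.342). The 14 measured partners of CD163 in haemoglobin and iron clearance had 6 positive and 8 negative log2 FC, a median of -0.013 (10 positive and 0.088 with slide as a block, 3 and -0.11 without REST cow 6, 8 and 0.089 without CONT cow 4), and 0 genes with an unadjusted p under 0.05. HP, which encodes haptoglobin, ranged widely, with a level of 3.04 ± 1.42 in CONT and 2.35 ± 3.48 in REST (log2 FC -0.69 ± 1.37, exact permutation p = 0.682). HBA, which encodes the alpha subunit of haemoglobin, was at 3.60 ± 0.80 in CONT and 3.73 ± 0.59 in REST (log2 FC 0.13 ± 0.38, exact permutation p = 0.771).

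AIF1, which bundles actin in ruffling and phagocytosing macrophages, had levels of 1.32 to 2.20 in CONT (median 1.97) and 0.82 to 2.47 in REST (median 2.05). REST cows 1, 4 and 6 were above every CONT cow and REST cows 2 and 5 were below every CONT cow. These cancelled in the mean, 1.88 ± 0.34 (SD) in CONT and 1.81 ± 0.70 in REST, so that the log2 FC was -0.069 ± 0.30 (SE, 95% confidence interval -0.73 to 0.59, exact permutation p = 0.855).

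CD86, which binds CD28 and CTLA4 on T cells, showed the same division of the REST cows. Its level was -1.57 to -0.67 in CONT (median -1.20) and -3.19 to -0.47 in REST (median -0.84), with REST cows 2 and 5 at -3.19 and -2.38, below all CONT cows, and the other 4 REST cows above the CONT mean. The log2 FC was -0.24 ± 0.43 (SE, 95% confidence interval -1.17 to 0.70, exact permutation p = 0.617). A further probe, above background on 11 arrays, gave -0.32 ± 0.40, and the last was above background on only 2 CONT and 1 REST arrays.

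Of the partners of CD86 in costimulation, 10 of 16 genes were measured, 4 with positive and 6 with negative log2 FC (43.3% of all named genes were positive) and a median of -0.094. With slide as a block 6 were positive with a median of 0.14, and with a cow left out the median ranged from -0.15 (3 positive, without REST cow 1) to 0.11 (6, without REST cow 5). CD40, a receptor of antigen-presenting cells, was the 1 gene of these 10 with an unadjusted p under 0.05, as 2.64% of named genes had, at 0.20 ± 0.25 (SD) in CONT and -0.33 ± 0.47 in REST (log2 FC -0.54 ± 0.22, exact permutation p = 0.0238). TNFRSF9 had a log2 FC of 0.58 ± 0.41 (exact permutation p = 0.221) and TNFRSF4, a costimulatory receptor of T cells, 0.56 ± 0.32 (exact permutation p = 0.132).

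The direction of these genes differed between slides. For CSF1R the REST minus CONT difference was -1.46 on slide 2, which held REST cows 2, 4 and 5 and 1 CONT cow, and 0.27 and 0.41 on slides 1 and 3. For CD68 it was -1.75 on slide 2 and 1.03 and 1.18 on the others, for AIF1 -0.78 against 0.67 and 0.28, and for CD86 -0.81 against 0.44 and 0.42. CSF1 went the other way, with 0.60 on slide 2 and -0.49 and -0.29 on slides 1 and 3. With slide as a block the log2 FC was -0.19 ± 0.43 (SE) for CSF1R, 0.26 ± 0.55 for CD68, 0.078 ± 0.33 for AIF1, 0.060 ± 0.42 for CD86 and -0.084 ± 0.25 for CSF1, so that AIF1, CD86 and CSF1 changed sign while each lay within its SE of 0.

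**Figure D2:**
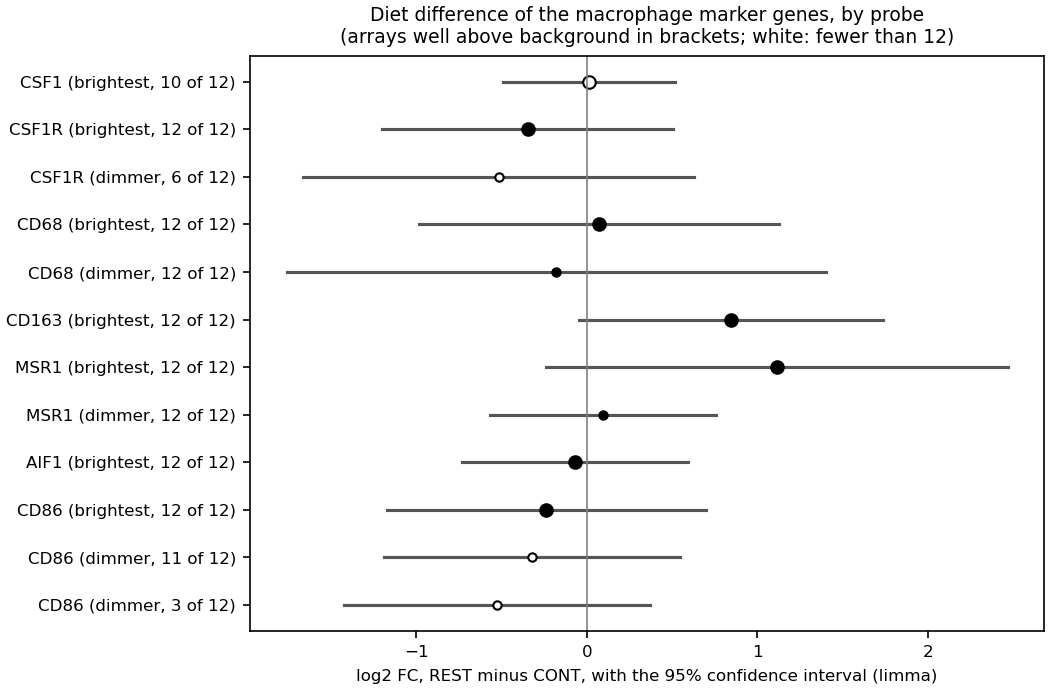
Log2 FC (REST minus CONT, horizontal axis) with the 95% confidence interval from limma for 12 probes of 7 macrophage marker genes, the CSF1 probe that was well above background on 0 arrays being left out. Large points are the probe that stands for its gene, and white points were well above background on fewer than 12 arrays. Every interval includes 0, and CD163 at 0.85 and MSR1 at 1.11 lie farthest from it.

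The macrophage markers varied widely from cow to cow. Within groups, the pooled SD was 1.19 for MSR1, 0.92 for CD68, 0.81 for CD86, 0.77 for CD163, 0.74 for CSF1R, 0.55 for AIF1 and 0.40 for CSF1, where the median over 9083 named genes well above background on all arrays was 0.33. Only 2.35% of these genes had a larger SD than MSR1, 5.47% a larger one than CD68 and 10.7% a larger one than CSF1R, whereas CSF1 was exceeded by 39.3%. For all 7 genes the SD was larger in REST than in CONT, which was not tested. The share of all named genes with a larger SD in REST was not counted. REST cows 2 and 5 were the lowest of all cows for CSF1R, CD68, AIF1 and CD86, and REST cow 6 the highest for CD163.

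Many member genes varied together. Of 21 pairs of member genes compared over the 12 cows, 16 had a Benjamini-Hochberg adjusted permutation p under 0.05, 8 with positive and 8 with negative r, and 16 had so for rho. The smallest r among these 16, by size, was 0.64, a size that 13.3% of all pairs of 9001 named genes reached (7.2% with positive and 6.12% with negative r). CSF1R, AIF1, CD68 and CD86 formed a block in which all 6 pairs were positive. CSF1R and AIF1 gave r = 0.91 (permutation p = 2e-05, adjusted 0.00042) and rho = 0.85 (adjusted 0.00518), and r was 0.85 without REST cows 2 and 5, the 2 farthest from the median of CSF1R. The relation was present in each diet, with r = 0.95 in CONT and 0.92 in REST, and r was 0.91 for values centred within diet and slide together. CD68 and AIF1 gave r = 0.89 (permutation p = 0.00014, adjusted 0.000945, rho = 0.92, adjusted 0.000945), and r was 0.88 without the 2 farthest cows. CSF1R and CD68 gave r = 0.83 (permutation p = 0.00018, adjusted 0.000945, rho = 0.93, adjusted 0.00084), and r was 0.90 without the 2 farthest cows.

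The r of CD86 with the block was higher within REST than within CONT. CSF1R and CD86 gave r = 0.90 (permutation p = 0.0005, adjusted 0.0021, rho = 0.71, adjusted 0.0251), but r was 0.96 in REST and 0.41 in CONT, and 0.56 without REST cows 2 and 5. AIF1 and CD86 behaved alike, with r = 0.90 (permutation p = 0.00015, adjusted 0.000945, rho = 0.83, adjusted 0.00966), r = 0.97 in REST, 0.50 in CONT and 0.71 without these 2 cows. CD68 and CD86 gave r = 0.72 (permutation p = 0.00481, adjusted 0.00918, rho = 0.73, adjusted 0.0208), with r = 0.90 in REST, 0.19 in CONT and 0.60 without the 2 cows farthest for CD68. Whether r differed between the diets was not tested. The MSR1 probe for NM_174113 joined the block, with r = 0.75 against CSF1R, 0.79 against AIF1, 0.77 against CD68 and 0.76 against CD86 (adjusted permutation p = 0.00864 to 0.0107 over 6 relations, rho = 0.80 to 0.88, r = 0.76 to 0.88 without CONT cow 6 and REST cow 6).

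The r of CD163 with the block changed when the diet groups were centred. Over all cows it was 0.73 with CD68 (permutation p = 0.00412, adjusted 0.00865, rho = 0.76, adjusted 0.0171, 0.59 without the 2 farthest cows), but 0.55 with AIF1 (adjusted 0.0756, rho = 0.76, adjusted 0.0171), 0.48 with CSF1R (adjusted 0.141, rho = 0.62, adjusted 0.0497) and 0.43 with CD86 (adjusted 0.177, rho = 0.52, adjusted 0.0986). Without the 2 farthest cows these were 0.75 with AIF1, 0.60 with CSF1R and 0.59 with CD86. With values centred within diet, r was 0.83 with CD68, 0.73 with CSF1R, 0.69 with AIF1 and 0.60 with CD86 (adjusted permutation p = 0.00195, 0.0133, 0.0165 and 0.0458). Centred within diet and slide together, r was 0.46 with CD86 (adjusted permutation p = 0.150).

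CSF1 and the NM_001113240 probe of MSR1 ran opposite to the block over all 12 cows, but without REST cow 2 none of their relations with the block or with each other passed for r (adjusted permutation p = 0.0684 to 0.110, r of the same sign). MSR1 and CSF1R gave r = -0.76 (permutation p = 0.00218, adjusted 0.00654, rho = -0.70, adjusted 0.0282), with r = -0.92 in CONT and -0.74 in REST, but -0.47 without REST cows 2 and 5. With CD86 the r of MSR1 was -0.71, with r = -0.58 in CONT and -0.84 in REST, but -0.085 without these 2 cows, so that the pooled relation did not hold without them (permutation p = 0.00851, adjusted 0.0128, rho = -0.48, adjusted 0.128). CSF1 and CSF1R gave r = -0.75 (permutation p = 0.00326, adjusted 0.00856, rho = -0.66, adjusted 0.0358), and r was -0.60 without CONT cow 6 and REST cow 2. Against AIF1, CD68 and CD86 the r of CSF1 was -0.74, -0.64 and -0.78 (adjusted permutation p = 0.00972, 0.0355 and 0.00654), and that of MSR1 against AIF1 and CD68 was -0.74 and -0.65 (adjusted permutation p = 0.00972 and 0.0343). The rho of MSR1 with AIF1 was -0.56 (adjusted 0.0785), and its r was -0.35 without REST cows 2 and 5. The other 4 of these relations had rho between -0.79 and -0.62 (adjusted 0.0143 to 0.0486), and r between -0.77 and -0.59 without the 2 farthest cows of each. CSF1 and MSR1 were positively related (r = 0.76, permutation p = 0.00402, adjusted 0.00865, rho = 0.75, adjusted 0.0171, r = 0.61 without the 2 farthest cows), but their r was 0.099 with the mean over a gene's probes (adjusted permutation p = 0.753).

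These relations depended on the scaling. When intensities were compared without the shift to each array's 75th percentile, r was 0.36 between CSF1 and CSF1R and 0.11 between CSF1 and MSR1 (adjusted permutation p = 0.306 and 0.785). The r of MSR1 stayed negative, at -0.60 with CSF1R, -0.59 with AIF1, -0.58 with CD68 and -0.52 with CD86, but did not pass (adjusted permutation p = 0.0625, 0.0702, 0.0805 and 0.124). The r between CSF1R and AIF1 was then 0.97. Intensities without the shift share the brightness of their array, which by itself tends to raise r between genes. These values therefore cannot tell which scaling gives the better r.

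**Figure D3:**
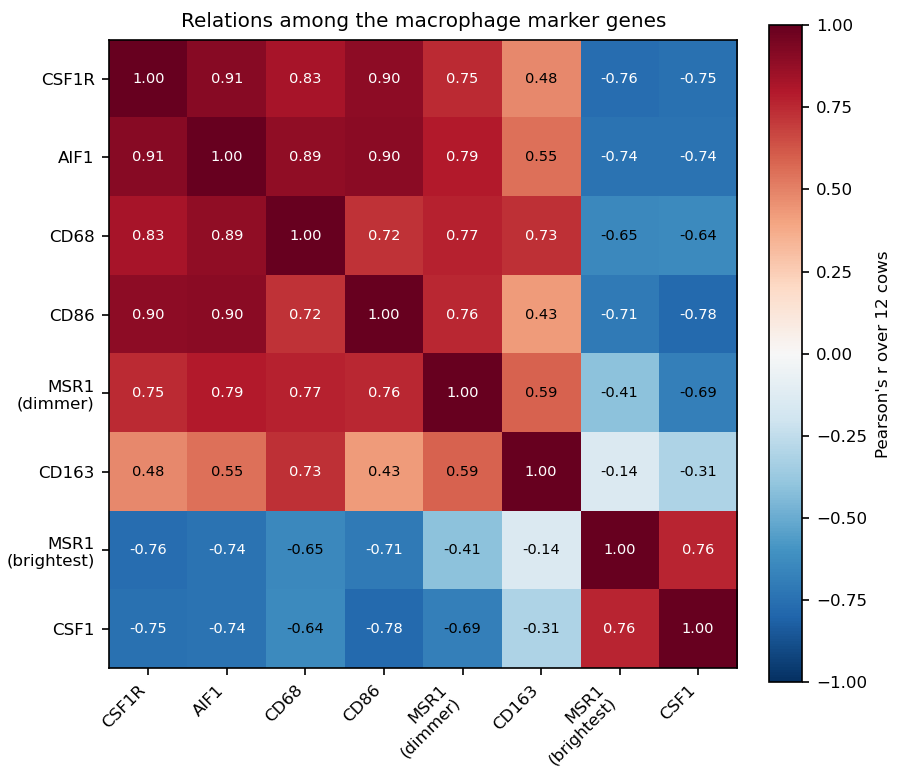
Pearson's r over 12 cows (color and number in each cell) between 7 macrophage marker genes, with both MSR1 probes (dimmer: NM_174113; brightest: NM_001113240). CSF1R, AIF1, CD68, CD86 and the NM_174113 probe of MSR1 form a positive block with r of 0.72 to 0.91, and CSF1 and the other MSR1 probe are negative to it.

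The brightness of the arrays moved with several of these genes. Over the 12 cows the level had r = 0.68 with the log2 75th percentile for CSF1R (adjusted permutation p = 0.0254 over 8 relations, rho = 0.58), 0.76 for CD86 (adjusted 0.024, rho = 0.62), 0.62 for AIF1 (adjusted 0.0497, rho = 0.50), 0.53 for CD68 (adjusted 0.0871, rho = 0.48), -0.74 for CSF1 (adjusted 0.024, rho = -0.65), -0.70 for MSR1 (adjusted 0.0254, rho = -0.51) and 0.069 for CD163 (adjusted 0.833, rho = 0.084). Without the 2 cows whose arrays were farthest from the median brightness, these were 0.11 for CSF1R, 0.29 for CD86, 0.070 for AIF1 and 0.16 for CD68, but still -0.52 for CSF1 and -0.33 for MSR1. The 75th percentile is itself subtracted in a level, and without this subtraction the log2 intensity had r = 0.62 with it for CSF1, -0.41 for MSR1, 0.53 for CD163 and 0.79 to 0.90 for CSF1R, CD68, AIF1 and CD86, so that the sign for CSF1 turned. REST cows 2 and 5 had the 2 dimmest arrays, with 75th percentiles of 387 and 508, and both lay on slide 2. The part of array brightness and slide in the relations among the members was not tested beyond the values given.

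**Figure D4:**
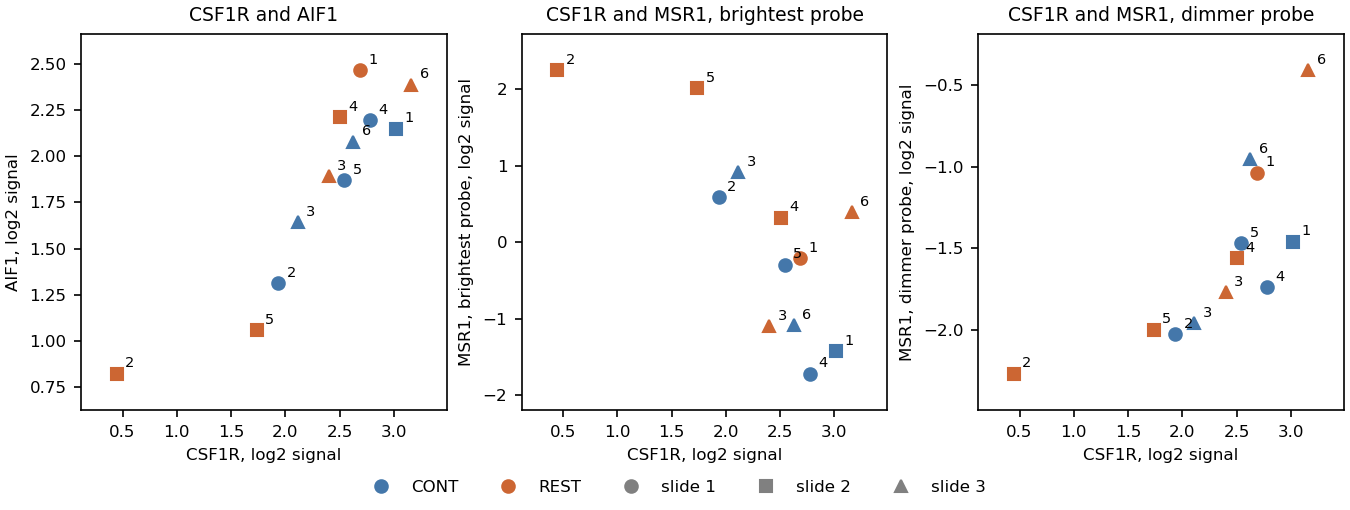
Level of AIF1 and of the 2 MSR1 probes (vertical axes, log2 signal relative to the array's 75th percentile; brightest: NM_001113240, dimmer: NM_174113) against the level of CSF1R in the same cow, for 6 CONT and 6 REST cows numbered by replicate, with the slide as shape. AIF1 and the NM_174113 probe rise with CSF1R (r = 0.91 and 0.75), and the NM_001113240 probe falls (r = -0.76), with REST cows 2 and 5 at the left end of each panel.

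As a description, the members were placed among 9077 other named genes by their r with CSF1R. Only 0.837% of these genes had a higher r than AIF1, 1.19% a higher one than CD86 and 3.38% a higher one than CD68, whereas 21.7% had a higher one than CD163 and 98.8% than MSR1. The genes most like CSF1R were CCR1 (r = 0.99), a chemokine receptor of myeloid cells, SPI1 (0.97), the transcription factor PU.1 of the myeloid lineage, SNX10 (0.97), a sorting protein of endosomes, LRRC25 (0.97) and CTSB (0.97), the lysosomal protease cathepsin B. A total of 397 genes (4.37%) had r above 0.8 with CSF1R. For CD163 there were 35 such genes (0.386%), led by LOC515697 (0.90), RASGRP2 (0.89), MARVELD1 (0.89), NR1H3 (0.86), which encodes the oxysterol receptor LXR alpha, and DDX19B (0.86).

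The 2 MSR1 probes had different neighbors. Most like the NM_174113 probe were RNASET2 (r = 0.96) and DNASE2 (0.88), nucleases of the lysosome, with DOCK11 (0.88), SLC8B1 (0.88) and TWF2 (0.87). Most like the NM_001113240 probe were RPL17 (0.94), a ribosomal protein, BCL2L2 (0.94), an inhibitor of apoptosis, FAM177A1 (0.93), CERT1 (0.89), a ceramide transporter, and TPD52L1 (0.87).

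The lists of other macrophage, pan-leukocyte, neutrophil and dendritic cell genes were lowest in the same REST cows as CSF1R and CD68, but those of B and T cells were not lowest in both. The mean level of 34 other macrophage genes with a value on every array was 0.19 to 0.78 in CONT (median 0.36) and -0.39 to 0.90 in REST (median 0.43), with REST cows 2 and 5 lowest at -0.39 and 0.059 and REST cow 6 highest, as for CSF1R and CD68. For 13 pan-leukocyte genes the mean was 1.38 to 2.60 in CONT and 0.54 to 2.74 in REST, with 0.54 and 1.18 in REST cows 2 and 5, again the lowest. For 13 neutrophil genes it was -2.48 to -0.73 in CONT and -3.33 to -0.44 in REST, with -3.33 and -2.64 in REST cows 2 and 5, and CD177 was called well above background in 0 of 12 cows. For 11 dendritic cell genes it was -2.64 and -2.70 in these cows and -2.55 to -1.68 in the others. The mean level of 9 B cell genes was -0.69 in REST cow 2, the second highest of all, and -0.89 in REST cow 5, and that of 13 T cell genes was -0.70 and -0.54 in a range of -0.70 to -0.13. The same 2 cows held the 2 highest endothelium levels (1.03 and 0.82, 13 genes), and their milk epithelium levels were 7.48 and 7.47 (12 genes) in a range of 6.27 to 7.48. The level of 13 fibroblast genes was 0.56 in REST cow 2 and 0.99 in REST cow 5, where the range over the 12 cows was 0.56 to 1.63. The part of tissue composition in the low marker levels of these cows was not tested.

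**Figure D5:**
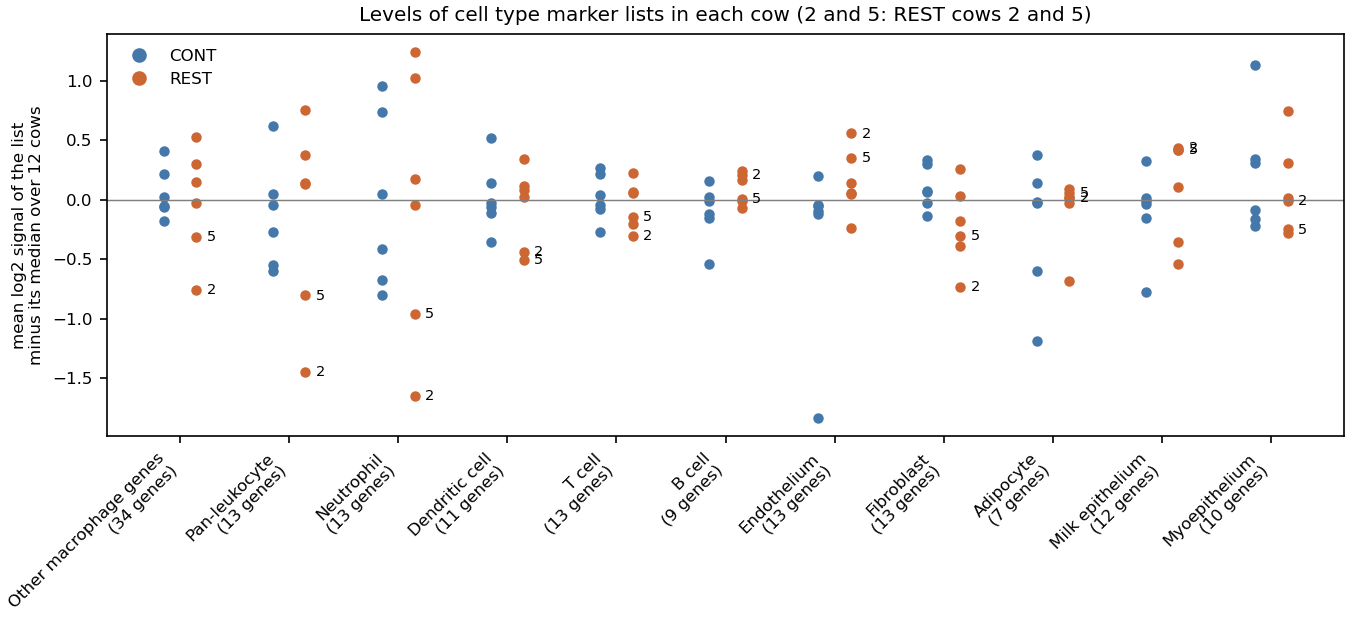
Mean level of the genes of 11 marker lists that have a value on every array, in each of 6 CONT and 6 REST cows, as a difference from the list's median over the 12 cows (vertical axis, log2 units), with REST cows 2 and 5 numbered. These cows are the lowest for other macrophage, pan-leukocyte, neutrophil and dendritic cell genes and the 2 highest for endothelium.

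None of these lists had a gene that passed the adjusted threshold. The 35 other macrophage genes had 14 positive and 21 negative log2 FC, a median of -0.079 and 0 genes with an unadjusted p under 0.05, where 2.64% of all named genes had one. With a cow left out the median ranged from -0.26 (11 positive, without REST cow 6) to 0.11 (20 positive, without REST cow 2). The largest differences among them were in LPL, the lipoprotein lipase that milk epithelium and adipocytes also make (level 4.68 ± 2.16 (SD) in CONT and 3.75 ± 2.80 in REST, log2 FC -0.93 ± 1.29, exact permutation p = 0.515), and GPNMB, a glycoprotein of lipid-loaded macrophages (0.27 ± 0.74 in CONT, 0.81 ± 0.83 in REST, log2 FC 0.54 ± 0.42, exact permutation p = 0.262).

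Genes of inflammatory macrophage activation had more negative than positive log2 FC, 14 against 5 of 19 measured, where 43.3% of all named genes were positive, with a median of -0.11. The RNA is from bulk tissue, so these transcripts cannot be assigned to macrophages rather than to other cells of the biopsy. An unadjusted p under 0.05 was found for 3, with lower means in REST, as for 2.64% of named genes in either direction. With slide as a block the positive genes were 9 of 19 with a median of -0.0080, and with a cow left out they were 2 to 9, with a median from -0.29 (without REST cow 1) to -0.085 (without REST cow 5). The 3 genes with an unadjusted p under 0.05 were PTGS2, the inducible cyclooxygenase (log2 FC -0.80 ± 0.30, exact permutation p = 0.0281, detected above background in 6 CONT and 5 REST cows), IL1A, which encodes interleukin 1 alpha (-0.78 ± 0.30, exact permutation p = 0.0195, detected above background in 5 CONT but only 3 REST cows), and CD40, given above. SOD2, the mitochondrial superoxide dismutase, had -1.25 ± 0.67 (exact permutation p = 0.0736) and TNF -0.90 ± 0.52 (exact permutation p = 0.149), and IL12A was called well above background in 0 of 12 cows. Genes of alternative activation were divided, with 7 positive and 11 negative of 18 and a median of -0.058, which ranged from -0.21 without CONT cow 6 to 0.0019 without CONT cow 4. An unadjusted limma p under 0.05 was found for 1 gene lower and 1 gene higher in REST, FN1 and ARG1, as for 2.64% of named genes in either direction. FN1, fibronectin, which fibroblasts also make, had a log2 FC of -0.94 ± 0.35 (exact permutation p = 0.0195), and ARG1, the arginase of alternatively activated macrophages, which milk epithelium also expresses, had a log2 FC of 0.46 ± 0.19 (exact permutation p = 0.039). ALOX15, a lipoxygenase, had -1.17 ± 1.36 (exact permutation p = 0.461). CCL22 was called well above background in 0 of 12 cows.

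Other cell types were read in the same way. The pan-leukocyte list had a median log2 FC of 0.0044 (7 of 13 positive), the neutrophil list 0.16 (7 of 13), the dendritic cell list -0.0058 (4 of 12), the T cell list -0.14 (3 of 13) and the B cell list 0.077 (5 of 9). Unadjusted limma p under 0.05 were found there for CD3D (log2 FC 0.60 ± 0.26, exact permutation p = 0.0563), POU2AF1 (0.94 ± 0.38, 0.0476, detected above background in 5 CONT and 6 REST cows) and MS4A1, which was detected above background in 0 CONT and 4 REST cows and is given no FC. Of all named genes, 2.64% had such a p in either direction, a share to be read beside the endothelium and fibroblast genes below too. The endothelium list had 14 of 14 genes positive with a median of 0.49, where 43.3% of named genes were positive, and VWF had an exact permutation p of 0.00649. The mean level of 13 endothelium genes was -1.36 in CONT cow 6 and 0.23 to 1.03 in the other 11 cows, and without CONT cow 6 the log2 FC was positive for 12 of 14 with a median of 0.15, the other medians with a cow left out reaching 0.62. Fibroblast genes had a median of -0.37 (4 of 13 positive), which was -0.16 with slide as a block and -0.47 to -0.25 with a cow left out (REST cow 1 or 2), and LUM, COL1A2 and COL1A1 had log2 FC of -0.84, -0.65 and -0.72 with exact permutation p of 0.00866, 0.0325 and 0.0649. The medians were 0.27 for adipocyte genes (6 of 8 positive, and 0.18 to 0.40 with a cow left out), 0.28 for milk epithelium (10 of 12, and 7 with a median of 0.049 without CONT cow 6, 0.46 without REST cow 3, and 8 with a median of 0.081 with slide as a block) and -0.14 for myoepithelium (2 of 10, and 7 with a median of 0.10 without CONT cow 5, 0 and -0.26 without REST cow 3). The leukocyte medians moved with single cows in both directions. With a cow left out, that of the pan-leukocyte list ranged from -0.21 (3 of 13 positive, without REST cow 6) to 0.31 (12 of 13, without REST cow 2), and that of the neutrophil list from -0.20 (3 of 13) to 0.40 (8 of 13) without the same cows. The dendritic cell median ranged from -0.10 to 0.069 and the T cell median from -0.24 to 0.034, in both without REST cow 3 and without REST cow 2. The B cell median ranged from -0.0062 without REST cow 6 to 0.13 without REST cow 1. With slide as a block these medians were 0.16, 0.29, 0.035, 0.030 and 0.076.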

How the data were processed

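RNA of 12 biopsies (6 CONT, 6 REST) was measured with 1 array per cow. The authors scanned the arrays and processed them with Feature Extraction (version 11.0.1.1), and the deposited values are spot intensities after its background correction, without normalization between arrays. Groups were taken from the labels, and cows are numbered in accession order.

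Control spots and spots marked as outliers were removed, each array's 75th percentile was subtracted from its log2 intensities, spots of a probe were averaged, and probes were named through RefSeq accessions matched to a RefSeq gene table (assembly ARS-UCD2.0). As no assembly of the array's annotation was given, no positions or sequences are printed. REST and CONT were compared with limma 3.58.1 (R 4.3.3; lmFit, eBayes; two-sided; no covariate and no filter, 7047 probes not well above background on any array included), with Benjamini-Hochberg adjustment over 43653 probes and a threshold of 0.05. Westfall-Young adjustment over 100 splits of the cows was an alternative. Exact permutation tests enumerated all splits of 6 against 6, which can give a p of 0.0022 at the lowest, and correlations used 100000 permutations. The number of arrays limits the precision.

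The members and gene lists were chosen with earlier results of these data known. Named from the lists were genes with an unadjusted p under 0.05 (up to 5 per list) and the 2 with the largest differences among genes well above background on all 12 arrays, of which those of other cell types are not all printed. The genes most like CSF1R and CD163 were named by Pearson's r. The neighbors of the MSR1 probes were added after their values were seen. The relations of the NM_174113 probe of MSR1 with the other members were not planned either, as the plan used the brightest probe of each gene. Alternatives were quantile normalization, another reference of the shift, normexp (offset 50) on median signals, the deposited matrix (largest difference from the scanner files 0), a filter on dim probes, outlier spots kept, slide as a block, an intensity trend, the mean over a gene's probes, and each cow left out in turn.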

Additional observations from a re-analysis of the deposited data

Results flagged for a closer look

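By Dixon's test none of the 13 member probes had a cow apart from the others of its group, the CD163 level of REST cow 6 (0.01, the next REST cow at -1.38) included. Over 26 groups of member values and 34 groups of list means, 2 groups had such a cow, and about 1 in 20 groups, here 3, would by chance. The mean level of the endothelium list was -1.36 in CONT cow 6, where the next lowest CONT cow was at 0.35 and the highest at 0.67. The mean level of the adipocyte list was -1.78 in REST cow 3, against -1.12 to -1.01 in the other REST cows.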

How the results depend on the processing

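No paired analysis was possible because the labels give every cow the same replicate text and no number that links a REST to a CONT cow. The count of 0 probes past the adjusted threshold held under all 21 alternatives. Member genes with an unadjusted p under 0.05 numbered 1, CD163, with the percentile taken over probes well above background, with slide as a block and with an intensity trend, and 0 to 1 when a cow was left out (CD163 without CONT cow 4, REST cow 2 or REST cow 5, with p of 0.029 to 0.0463; MSR1 without CONT cow 3 or REST cow 3, with p of 0.0457 and 0.0317). The exact tests gave 0 to 1 such genes when a cow was left out. CD163 was positive under every alternative, at 0.51 (without REST cow 6) to 1.09 (slide as a block), MSR1 at 0.60 (mean over its probes) to 1.46, and CSF1R was negative at -0.55 to -0.0051, the last without REST cow 2. Member genes higher in REST numbered 2 with the mean over a gene's probes and 3 to 5 with a cow left out.

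The smallest differences changed sign. CSF1 was -0.041 with quantile normalization, -0.12 with normexp, -0.084 with slide as a block, -0.21 with the mean over probes, and -0.13 to 0.11 with a cow left out. CD68 was -0.053 with the mean over probes and -0.22 to 0.31 with a cow left out. AIF1 was 0.078 and CD86 0.060 with slide as a block, and with a cow left out AIF1 was -0.20 to 0.13 and CD86 -0.42 to 0.12. Leaving out REST cow 2 turned the sign of AIF1 and CD86, and leaving out REST cow 5 that of AIF1.

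Pairs of members past the adjusted threshold numbered 16, against 9 with normexp, 10 without a shift between arrays, 7 with the mean over probes, 14 with quantile normalization, 19 centred within diet, 18 centred within diet and slide, and 7 to 17 with a cow left out, the 7 being without REST cow 2, where the 9 lost were the 8 negative pairs and CSF1 with MSR1. These alternatives for the pairs and the exact tests were chosen after seeing the data. All 6 pairs among CSF1R, AIF1, CD68 and CD86 passed for r in all 21 settings. Of these settings, the deposited matrix repeats the main values and could not change r. Without a shift, both genes of a pair share the array's brightness, which tends to raise r. For rho, the 3 pairs without CD86 did so too, but CSF1R with CD86 and CD68 with CD86 did not pass with normexp (adjusted p = 0.0869 and 0.0687) or without CONT cow 2 or 3 or REST cow 2 or 5 (0.0773 to 0.0949), nor CSF1R with CD86 without REST cow 6 (0.0559), nor AIF1 with CD86 with the mean over probes (0.0968). The cause of these changes was not tested. The number of cows limits the precision, and 5 of 13 member probes, CSF1 among them, were not well above background on every array.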
